A study of Homo sapiens with 6 samples.

Results

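Transcripts of 10 genes that encode the core proteins of small nucleolar ribonucleoproteins (snoRNPs) and other abundant nucleolar proteins were examined in H9 cells depleted of NPM1 transcript. H9 is an established line of human embryonic stem cells. The genes were taken by symbol from the 62703 genes of the deposited expression table, and each of the 10 symbols matched 1 row. They comprise the box C/D core (FBL, NOP56, NOP58 and SNU13), the box H/ACA core (DKC1, NHP2, NOP10 and GAR1), and NCL and NOLC1. Total RNA had been sequenced from 3 libraries of H9 cells with NPM1 knocked down by siRNA (siNPM1; the treatment label reads siB23, from the protein's other name, B23) and 3 libraries of H9 cells labelled as control (siControl). All 6 libraries come from the same line, so the groups share a genetic background. The design text describes biological replicates, and the sources used here do not give the siRNA sequence, its dose or the time of harvest.

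A snoRNP pairs a guide RNA with a fixed set of proteins in the nucleolus, where ribosomal RNA is made and modified. Box C/D particles direct ribose methylation: SNU13 binds the guide RNA first, NOP56 and NOP58 form the scaffold, and FBL (fibrillarin) is the methyltransferase. Box H/ACA particles direct pseudouridylation: DKC1 (dyskerin) is the pseudouridine synthase, and NHP2, NOP10 and GAR1 are its partners, which are also found in telomerase. NCL (nucleolin) is an abundant RNA-binding protein of ribosome synthesis, and NOLC1 (Nopp140) is a chaperone that shuttles with both kinds of particle. NPM1 (nucleophosmin) is a nucleolar protein and histone chaperone that works in the same compartment.

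Sequences upstream of a RefSeq start of some of these genes are shown because these genes behaved differently in the libraries. From lowest to highest library NOP56 varied 2.69 times and NCL 1.52 times. NOP58 (1.83 times) and NOLC1 (1.73 times), which varied more than NCL, had no sequence to show. NHP2 is the member whose groups did not overlap, and NOP10 is an H/ACA partner whose groups did. NHP2 and NOP10 each varied 1.26 times. Each sequence is the stretch of 250 bases upstream of a RefSeq transcription start (GRCh38.p14), written 5′ to 3′ on the strand of the gene. The gene bounds given below come from GENCODE, which can place the start elsewhere. By those bounds the NCL and NOP56 windows lie inside the genes, and the NHP2 and NOP10 windows overlap them in part. Capitals mark GATTGG or its reverse complement CCAATC (the inverted and forward CCAAT box), and CACGTG (the E-box bound by MYC and its relatives).
NOP56 (chr20:2652382-2652631, plus strand): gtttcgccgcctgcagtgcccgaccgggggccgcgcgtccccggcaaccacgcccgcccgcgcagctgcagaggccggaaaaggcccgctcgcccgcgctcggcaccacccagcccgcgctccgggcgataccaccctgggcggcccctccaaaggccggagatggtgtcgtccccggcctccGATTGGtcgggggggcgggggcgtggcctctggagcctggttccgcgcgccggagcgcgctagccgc
NCL (chr2:231464485-231464734, minus strand): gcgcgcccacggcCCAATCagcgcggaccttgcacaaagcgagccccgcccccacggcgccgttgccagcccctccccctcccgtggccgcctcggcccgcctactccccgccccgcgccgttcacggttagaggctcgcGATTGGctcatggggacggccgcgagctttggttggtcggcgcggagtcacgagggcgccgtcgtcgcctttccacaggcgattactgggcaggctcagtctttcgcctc
NHP2 (chr5:178153886-178154135, minus strand): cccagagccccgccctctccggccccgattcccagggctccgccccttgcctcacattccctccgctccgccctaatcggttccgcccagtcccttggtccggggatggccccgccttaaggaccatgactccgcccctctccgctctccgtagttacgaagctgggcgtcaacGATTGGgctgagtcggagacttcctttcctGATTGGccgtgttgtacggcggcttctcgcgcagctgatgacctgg
NOP10 (chr15:34343137-34343386, minus strand): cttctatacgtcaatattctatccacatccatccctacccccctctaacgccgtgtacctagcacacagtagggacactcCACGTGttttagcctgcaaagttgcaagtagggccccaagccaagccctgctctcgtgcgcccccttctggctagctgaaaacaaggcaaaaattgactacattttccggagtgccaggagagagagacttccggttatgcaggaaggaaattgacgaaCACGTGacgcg

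RefSeq's promoter table held a window for 7 of the 10 genes, 8 windows in all with an alternative start of GAR1, and none was matched for NOP58, SNU13 or NOLC1. Searched on both strands, GATTGG was found in 4 of these 8 windows (NOP56, NCL, NHP2 and the alternative start of GAR1). It was found in 14.1% of all 35116 windows of this length in the table. In NCL and NHP2 GATTGG occurred 2 times each, once per strand in NCL. A CCAAT box followed by a base other than C, as in the FBL window, was not counted. The palindromic E-box was found in 1 window, NOP10, where its nearest match begins 11 bases before the start, and in 6.34% of all windows. The ETS core CCGGAAG was found in 3 windows (FBL, NOP10 and GAR1) and in 8.52% of all windows, and TATAAA in 0 of the 8 and 10.7% of all. The matches describe these letters in these windows and were not tied to binding or to the levels of the genes.

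NPM1 transcript was low in each siNPM1 library. It stood at 3109, 2969 and 3132 TPM (the authors' transcript abundance unit) in siControl replicates 1, 2 and 3, and at 173, 165 and 238 TPM in siNPM1 replicates 1, 2 and 3. TPM is scaled for transcript length and sums to the same total in each library, so levels may be compared between genes, but the depth behind them is unknown. Pluripotency markers were present in all 6 libraries, the lowest value among 6 of them being 67.0 TPM for NANOG, but the levels of some differed between the groups. POU5F1 stood at 2231, 1706 and 2266 TPM in siControl and at 1391, 1375 and 1393 TPM in siNPM1, and it, NANOG and TDGF1 were lower in siNPM1 without overlap, 3 of 6 where 8.55% of all tested genes were. The other 3 had log2 fold changes above 0 with overlap: SOX2 (0.75), DNMT3B (0.67) and LIN28A (0.10). None of the 6 passed the test with all libraries (limma, described below). An unadjusted p under 0.05 was reached by 4 of the 6 (POU5F1, NANOG, TDGF1 and DNMT3B) and by 19.7% of all tested genes (limma). Without siControl replicate 2, POU5F1, NANOG and TDGF1 fell past its threshold, where 12.9% of all tested genes did (limma). DNMT3B rose past it, where 24.1% of all tested genes did (limma). Of 12 markers of differentiated cells, 9 had a mean under 1 TPM, with CGA and KRT14 listed at 0 throughout. Their summed level was 101, 67.5 and 118 TPM in the siControl libraries and 157, 214 and 210 TPM in siNPM1. It was mostly VIM, which stood at 93.6, 56 and 108 TPM in siControl. TBXT, SOX17, GATA6, FOXA2 and SOX1 stayed at 0.47 TPM or below in every library. Of the 3 tested markers, VIM and COL1A1 were higher in siNPM1 without overlap, where 16.2% of all tested genes were, and PAX6 overlapped. None of the 3 passed with all 6 libraries (limma). VIM and COL1A1 rose past the threshold without siControl replicate 2, where 24.1% of all tested genes did (limma). The part of either marker list in the results below was not tested. The library labelled siControl replicate 2 stood apart from the other controls. On the first principal component (54.4% of the variance) its coordinate was 28.1, near those of siNPM1 (30.4 to 32.2), while siControl replicates 1 and 3 lay at -59.9 and -61.7. Mitochondrially encoded transcripts made up 23.3% of its total, against 11.0% and 11.1% in the other controls and 18.6% to 21.6% in siNPM1. The cause of its position was not tested. The fold changes are therefore also given without that library and, for some genes, against it alone. That last fit has 1 control, which is assumed to vary like the siNPM1 libraries that alone give its spread. NPM1 itself, at a log2 fold change of -3.96, did not pass in it (limma, adjusted p = 0.0651), so a missed threshold there says little about any gene.

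The core snoRNP genes were among the better expressed genes of these cells, and their order was not the same in every library. By mean TPM over the 6 libraries the order was NCL (878), FBL (701), NOP10 (393), NHP2 (271), NOP56 (256), DKC1 (117), SNU13 (117), NOLC1 (115), NOP58 (105) and GAR1 (60.8). NCL ranked between 117 and 175 among 12811 protein-coding genes tested, and GAR1, the lowest of the 10, between 1547 and 2098. NCL and FBL overlapped: NCL was 0.932 times FBL in siControl replicate 3 and 1.01 to 1.53 times in the other libraries. NOP56 overlapped with NHP2 above it and, at its lowest, with DKC1, NOLC1 and NOP58 below it. DKC1, SNU13, NOLC1 and NOP58 overlapped with each other and cannot be ordered. NOP56 varied most, with its highest library at 2.69 times its lowest, and FBL least, at 1.10 times. The 10 transcripts summed to 0.272%, 0.328% and 0.265% of all TPM in siControl replicates 1 to 3 and 0.299%, 0.317% and 0.328% in siNPM1.

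**Figure D1:**
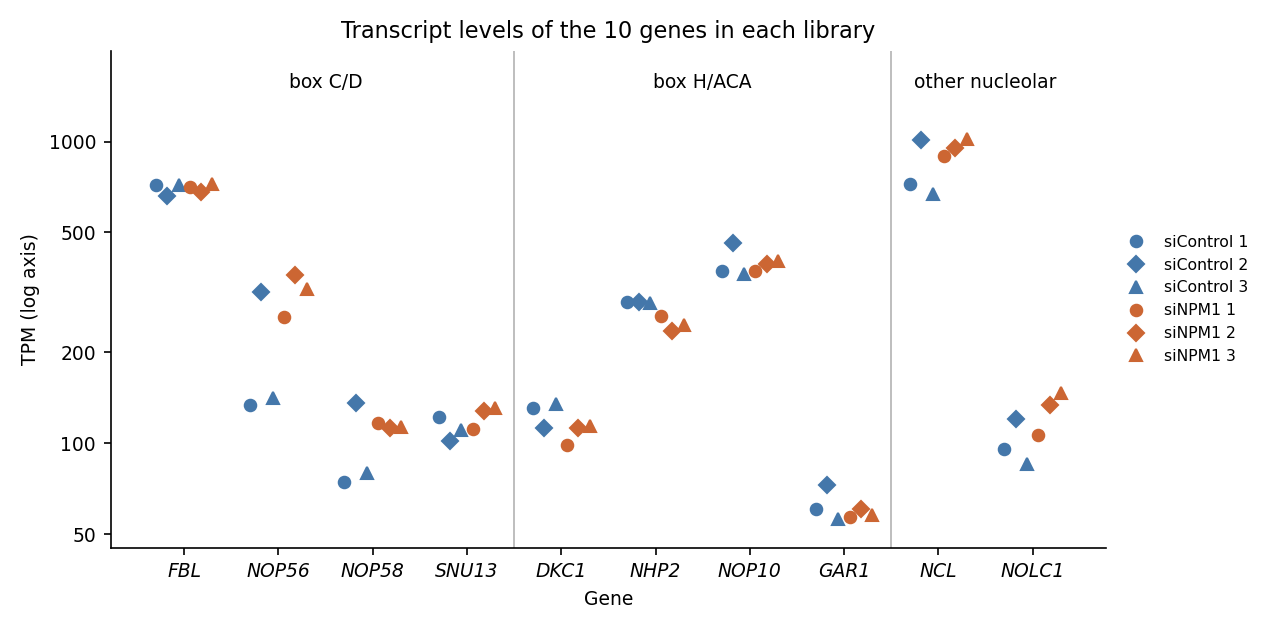
TPM of each of the 10 genes on a log axis, 1 point per library, with siControl in blue and siNPM1 in orange and the replicate number given by the marker shape. NOP56 sits at 134 and 141 TPM in siControl replicates 1 and 3 and at 261 to 361 TPM in siNPM1, with siControl replicate 2 among the latter at 316, while all 3 siNPM1 points of NHP2 lie below its siControl points.

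Values were compared as log2(TPM + 1) with limma's moderated test over the 15768 genes that averaged 1 TPM or more, and all 10 genes entered it. At an adjusted p under 0.05 (Benjamini-Hochberg), 0 of the 10 passed, where 0.0254% of all tested genes did (limma). At an unadjusted p under 0.05 there was 1 of the 10, NHP2, where 19.7% of all tested genes reached it. Which member did so depended on the scaling: NHP2 again after centring on the library median, NOP56 alone with mitochondrial and ribosomal protein genes taken out, and NOP56 and FBL under quantile normalization. The groups did not overlap for the same gene alone, lower in siNPM1, where 8.55% of all tested genes were lower without overlap and 16.2% higher. The median log2 fold change was 0.08 over the 10 genes and 0.10 over all tested genes. For any of these genes the smallest p of an exact permutation test is 0.1, with 3 libraries in each group. Because whole cultures were sequenced, fewer cells of a kind and less RNA per cell cannot be told apart.

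Among the box C/D genes, 4 of 4 had log2 fold changes above 0, or 3 of 4 after centring on the library median or with array weights (libraries weighted by how closely they follow the fit), where FBL turned negative, as it did without siControl replicate 2. Over all tested genes 40.1% were below 0, and 52.1% after centring. The scaffold pair NOP56 and NOP58 differed between siControl replicates, and FBL and SNU13 stayed near 1 level. NOP56 (ENSG00000101361, GRCh38 chromosome 20, 2652145 to 2658393, plus strand) was found at 134, 316 and 141 TPM in siControl replicates 1 to 3 and at 261, 361 and 325 TPM in siNPM1 replicates 1 to 3. Its siControl replicate 2 lay inside the siNPM1 range and the other controls below all of it, so the groups overlapped. The log2 fold change was 0.78 (standard error, SE, 0.336; limma, adjusted p = 0.259). Against siControl replicates 1 and 3 it was 1.18 (SE 0.145; limma, adjusted p = 0.00471). Against siControl replicate 2 alone it was -0.01, with a 95% interval from -0.61 to 0.58 (limma, adjusted p = 0.988).

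NOP58 (ENSG00000055044, chromosome 2, 202265716 to 202303666, plus strand), the partner of NOP56 in the scaffold, stood at 74.4, 136 and 79.6 TPM in siControl and at 117, 112 and 113 TPM in siNPM1. The 3 siNPM1 values lay between siControl replicate 2 above and the other controls below. The log2 fold change was 0.29 (SE 0.229; limma, adjusted p = 0.467). It was 0.56 against siControl replicates 1 and 3 (limma, adjusted p = 0.00483) and -0.25 against replicate 2 alone (limma, adjusted p = 0.462). The scaffold genes did not keep a fixed ratio to each other: NOP56 stood at 1.80, 2.32 and 1.77 times NOP58 in siControl and at 2.23, 3.22 and 2.87 times in siNPM1. These ratios overlapped between the groups through siControl replicate 2 and siNPM1 replicate 1.

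FBL (ENSG00000105202, chromosome 19, 39834458 to 39846414, minus strand), the methyltransferase, stood at 717, 659 and 718 TPM in siControl and at 708, 681 and 722 TPM in siNPM1. Its log2 fold change was 0.01, 95% interval from -0.22 to 0.24 (limma, adjusted p = 0.952). It was -0.03 against siControl replicates 1 and 3 (limma, adjusted p = 0.723). Its sign also turned, to -0.11, when each library was centred on its median. FBLL1, a paralog of FBL, was listed between 0.64 and 1.53 TPM. SNU13 (ENSG00000100138, chromosome 22, 41673930 to 41690504, minus strand), which binds the kink-turn of the guide RNA, stood at 122, 102 and 110 TPM in siControl and at 112, 128 and 130 TPM in siNPM1. The groups overlapped through siNPM1 replicate 1 (log2 fold change 0.15, 95% interval from -0.14 to 0.43, limma, adjusted p = 0.482), and the log2 fold change was 0.08 against siControl replicates 1 and 3 (limma, adjusted p = 0.54). An annotated processed pseudogene, Z83840.1, lies inside SNU13 on the same strand and held 2.32 to 5.34 TPM. It shares 0 exonic bases with SNU13, and whether reads were split between them is unknown. C22orf46, on the opposite strand, shares 43 exonic bases with SNU13 and held 1.31 to 5.83 TPM.

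Among the box H/ACA genes, all 4 log2 fold changes were negative with all 6 libraries, as they were after centring on the library median, while NOP10 turned positive with mitochondrial and ribosomal protein genes taken out, under quantile normalization and with array weights. Without siControl replicate 2 they split, with NHP2 and DKC1 negative and NOP10 and GAR1 positive. None of the 4 passed with all 6 libraries or without that one (limma). Array weights, a fit in which 60.2% of all tested genes passed, placed NHP2 and DKC1 past the threshold as lower. NHP2 (ENSG00000145912, chromosome 5, 178149460 to 178153967, minus strand), a relative of SNU13 in the H/ACA particle, stood at 294, 295 and 291 TPM in siControl and at 263, 235 and 247 TPM in siNPM1. The 3 controls, replicate 2 included, were nearly level with each other and lay above every siNPM1 library. The mean ± SD was 293 ± 1.83 TPM in siControl and 248 ± 14.2 TPM in siNPM1 (n = 3 each), which is -0.24 on the log2 scale (SE 0.0954; limma, adjusted p = 0.245; exact permutation p = 0.1). It was -0.24 against siControl replicates 1 and 3 (limma, adjusted p = 0.0544) and -0.25 against replicate 2 alone (limma, adjusted p = 0.496). NHP2 shares 414 exonic bases with RMND5B on the opposite strand, which held 17.0 to 40.0 TPM, and the sources used here do not say whether counting used the strand.

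DKC1 (ENSG00000130826, chromosome X, 154762742 to 154777689, plus strand), the pseudouridine synthase, stood at 131, 113 and 135 TPM in siControl and at 98.5, 113 and 114 TPM in siNPM1. siControl replicates 1 and 3 were above all other libraries, and replicate 2 lay within the siNPM1 range (log2 fold change -0.22, SE 0.121, limma, adjusted p = 0.335). Against siControl replicates 1 and 3 the log2 fold change was -0.30 (limma, adjusted p = 0.0521). DKC1 was thus highest in the libraries in which NOP56 was lowest, and siControl replicate 2 lay on the siNPM1 side in both genes.

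For NOP10 and GAR1 the groups overlapped, and the sign depended on siControl replicate 2. NOP10 (ENSG00000182117, chromosome 15, 34341713 to 34343177, minus strand), which braces the synthase, stood at 371, 460 and 364 TPM in siControl and at 371, 392 and 403 TPM in siNPM1 (log2 fold change -0.03, 95% interval from -0.32 to 0.27, limma, adjusted p = 0.910). GAR1 (ENSG00000109534, chromosome 4, 109815510 to 109824740, plus strand), which acts in substrate turnover, stood at 60.4, 72.9 and 56.0 TPM in siControl and at 57.1, 60.6 and 57.9 TPM in siNPM1 (log2 fold change -0.10, 95% interval from -0.41 to 0.21, limma, adjusted p = 0.668). In both genes siControl replicate 2 was the highest library. Against siControl replicates 1 and 3 the log2 fold change was 0.08 for NOP10 (limma, adjusted p = 0.37) and 0.01 for GAR1 (limma, adjusted p = 0.94). The ratio of NOP10 to GAR1 was the steadiest of those computed, at 6.15, 6.31 and 6.50 in siControl and 6.50, 6.47 and 6.97 in siNPM1.

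Box C/D and box H/ACA transcripts were then set against each other within each library, a difference that leaves out any scaling shared by all genes of a library. The mean log2(TPM + 1) of the 4 box C/D genes was 7.44, 7.86 and 7.44 in siControl replicates 1 to 3 and 7.80, 7.94 and 7.93 in siNPM1. That of the 4 box H/ACA genes was 7.43, 7.52 and 7.41 in siControl and 7.27, 7.32 and 7.33 in siNPM1. The difference, box C/D minus box H/ACA, was 0.01, 0.34 and 0.04 in siControl and 0.53, 0.62 and 0.60 in siNPM1. All 3 siNPM1 libraries lay above all 3 controls, with siControl replicate 2 between the other controls and siNPM1. The difference was 0.13 ± 0.19 in siControl and 0.58 ± 0.05 in siNPM1 (SD, n = 3 each), so it was larger by 0.45 on the log2 scale in siNPM1. It was larger by 0.56 against siControl replicates 1 and 3 and by 0.24 against replicate 2 alone. As a score over chosen genes it was given no test.

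**Figure D2:**
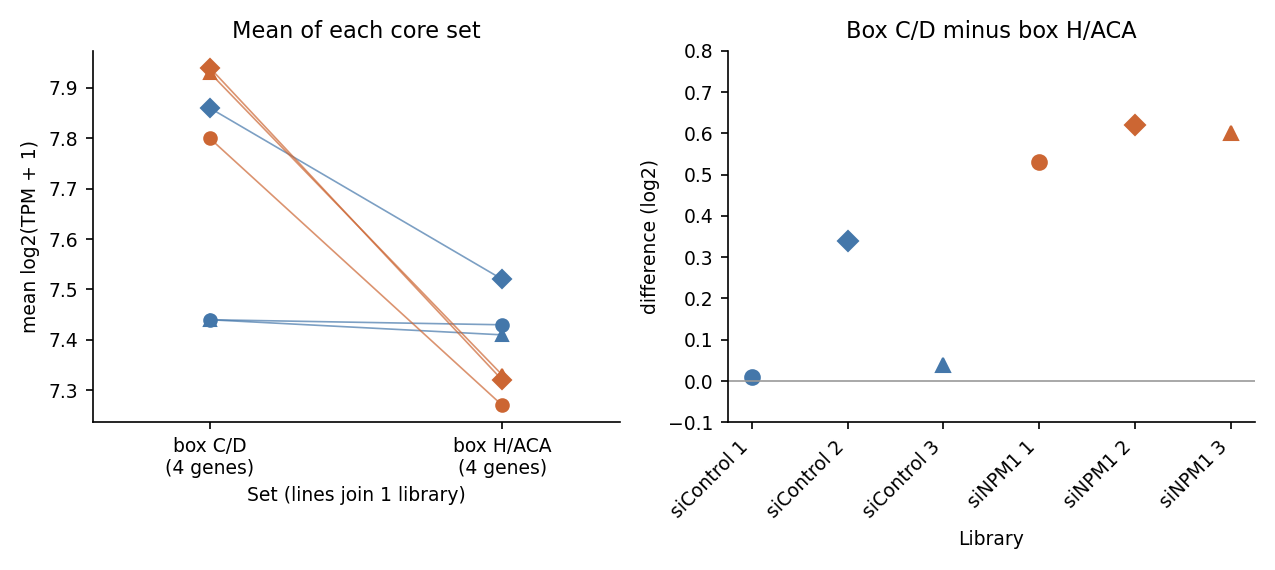
Left, mean log2(TPM + 1) of the 4 box C/D and the 4 box H/ACA genes, with lines joining the values of 1 library. Right, their difference by library, on a linear log2 axis, with siControl in blue at 0.01, 0.34 and 0.04 and siNPM1 in orange at 0.53, 0.62 and 0.60.

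The separation did not rest on any 1 of the 8 genes. Leaving out each gene in turn, the lowest siNPM1 library stayed above the highest siControl library in all 8 cases, and the change ranged from 0.30 without NOP56 to 0.55 without FBL. These 8 scores share most of their genes and all their libraries, so they are not independent. How often other sets of genes of this size separate the groups was not computed. FBL and SNU13 alone, set against the H/ACA mean, gave 0.78, 0.50 and 0.74 in siControl and 0.87, 0.89 and 0.93 in siNPM1. NOP56 and NOP58 alone gave -0.77, 0.18 and -0.67 in siControl and 0.19, 0.34 and 0.26 in siNPM1, where siControl replicate 2 came just below the lowest siNPM1 library. siControl replicate 2 was thus below the other controls by FBL and SNU13 and above them by NOP56 and NOP58.

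Gene by gene, 6 of the 16 differences between a box C/D and a box H/ACA gene (37.5%) did not overlap between the groups, all 6 higher in siNPM1. Among all pairs of the tested genes, 24.1% did not overlap in either direction. The 6 were FBL and SNU13 each against DKC1 and NHP2, and NOP56 against NOP10 and GAR1, so they share genes and are not independent. SNU13 minus DKC1 was -0.10, -0.15 and -0.29 in siControl and 0.18, 0.18 and 0.19 in siNPM1 on the log2 scale. SNU13 and DKC1 transcripts, close in level, changed order: SNU13 was below DKC1 in every siControl library and above it in every siNPM1 library. FBL minus NHP2 was 1.29, 1.16 and 1.30 in siControl and 1.42, 1.53 and 1.54 in siNPM1. Within each particle, 0 of 6 box C/D pairs and 0 of 6 box H/ACA pairs were without overlap. Set against siControl replicates 1 and 3, 12 of the 16 pairs were higher and 1, FBL minus NOP10, lower without overlap, where 62.4% of all pairs of tested genes did not overlap. Against the same controls, 5 of 6 pairs within box C/D and 4 of 6 within box H/ACA did not overlap.

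NCL and NOLC1 were lowest in siControl replicates 1 and 3, as NOP56 was, over a smaller range. NCL (ENSG00000115053, chromosome 2, 231453531 to 231483641, minus strand) was found at 724, 1010 and 669 TPM in siControl and at 894, 951 and 1020 TPM in siNPM1. siControl replicate 2 lay within the siNPM1 range and the other controls below it (log2 fold change 0.28, SE 0.172, limma, adjusted p = 0.376). Against siControl replicates 1 and 3 the log2 fold change was 0.45 (limma, adjusted p = 0.0122), and against replicate 2 alone -0.08 (limma, adjusted p = 0.807). NOLC1 (ENSG00000166197, chromosome 10, 102152176 to 102163871, plus strand) was found at 95.7, 120 and 85.3 TPM in siControl and at 107, 134 and 147 TPM in siNPM1. Its groups overlapped (log2 fold change 0.36, SE 0.178, limma, adjusted p = 0.294), and against siControl replicates 1 and 3 it was 0.50 (limma, adjusted p = 0.0533).

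**Figure D3:**
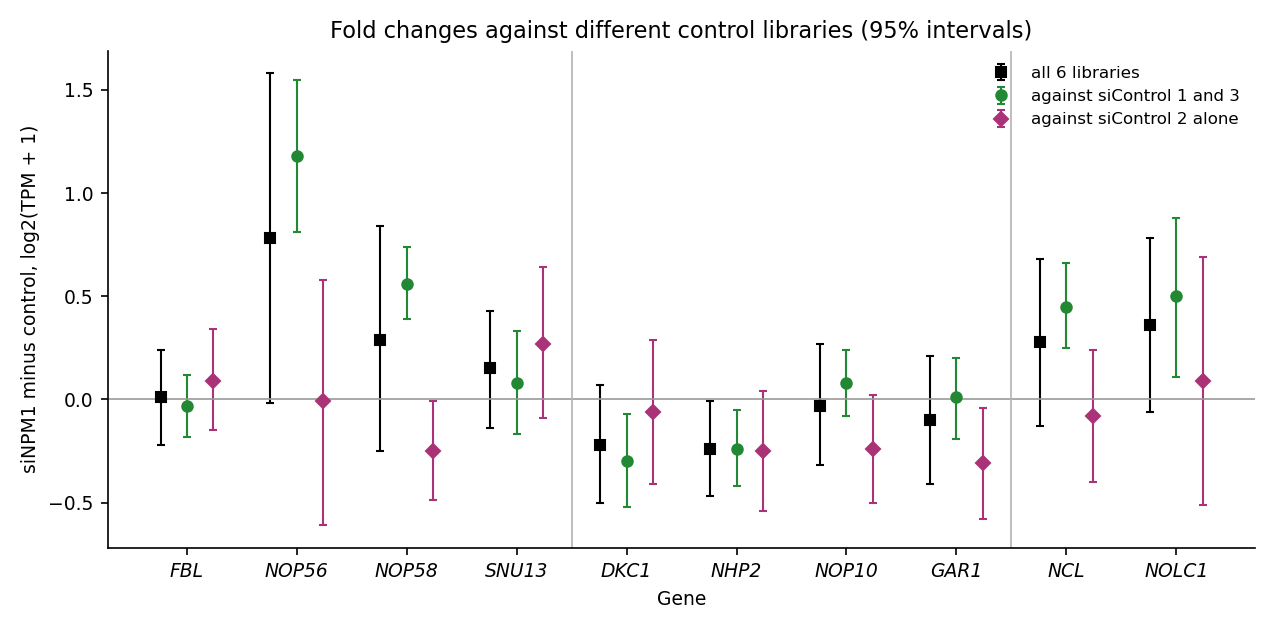
Fold change of each of the 10 genes, siNPM1 minus control on the log2(TPM + 1) scale, with 95% intervals of the limma fit, for all 6 libraries (black), for siControl replicates 1 and 3 as controls (green) and for siControl replicate 2 as the only control (purple). NOP56 goes from 1.18 to -0.01 between the last 2 fits, while NHP2 is at -0.24 and -0.25.

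Over the 10 genes, 3 rose and 0 fell past the threshold against siControl replicates 1 and 3 (NOP56, NOP58 and NCL; limma), where 24.1% of all tested genes rose and 12.9% fell. Against siControl replicate 2 alone, the fit with 1 control in which NPM1 did not pass either, 0 passed, where 0.171% of all tested genes did (limma). At an unadjusted p under 0.05 in that fit there were 2 of the 10, NOP58 and GAR1, both negative, where 10.6% of all tested genes reached it. The share of members that rose without replicate 2 was thus near that of all genes. In 5 of the 10 genes (NOP56, NOP58, NOP10, NCL and NOLC1) siControl replicate 2 and all 3 siNPM1 libraries lay above siControl replicates 1 and 3, where 35.7% of all tested genes did. NOP10 counts by a near tie, with siNPM1 replicate 1 at 371.32 TPM and siControl replicate 1 at 371.20 TPM. For DKC1, 1 of 10, those libraries lay below siControl replicates 1 and 3 instead, where 20.9% of all tested genes did.

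Among 14 snoRNP assembly factors, siControl replicate 2 and all 3 siNPM1 libraries lay above siControl replicates 1 and 3 in 10, where 35.7% of all tested genes did, and below them in 2, COIL and ZNHIT3, where 20.9% did. In log2 fold change 12 were above and 2 below 0 (median 0.23; 9 above and 5 below after centring on the library median), and 0 passed (limma). An unadjusted p under 0.05 was reached by 3 of the 14 and by 19.7% of all tested genes (limma). Against siControl replicates 1 and 3, 7 rose and 0 fell past the threshold, where 24.1% of all tested genes rose (limma). Against replicate 2 alone 7 were positive and 7 negative. TGS1, which hypermethylates the cap of snoRNAs and snRNAs, stood at 4.90, 19.3 and 5.73 TPM in siControl and at 23.6, 20.7 and 22.6 TPM in siNPM1 (log2 fold change 1.32, SE 0.453, limma, adjusted p = 0.232). All siNPM1 libraries were above all controls, siControl replicate 2 being the nearest. Without that library it rose (log2 fold change 1.88, limma, adjusted p = 0.00162). NUFIP1, an adaptor that brings SNU13 to the assembly machinery, stood at 9.40, 11.9 and 9.11 TPM in siControl and at 14.8, 12.9 and 14.1 TPM in siNPM1 (log2 fold change 0.43, limma, adjusted p = 0.237; 0.54 without siControl replicate 2, adjusted p = 0.0159). NAF1, the assembly factor that holds the place of GAR1 in the immature H/ACA particle, was named after its values were seen. It stood at 14.8, 25.4 and 16.4 TPM in siControl and at 26.9, 25.8 and 28.1 TPM in siNPM1 (log2 fold change 0.52, limma, adjusted p = 0.245; 0.75 without siControl replicate 2, adjusted p = 0.00499). These 3 of 14 were the assembly factors higher without overlap, where 16.2% of all tested genes were.

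Of 12 other nucleolar proteins, 11 had log2 fold changes above 0 and 1 below (median 0.38), where 40.1% of all tested genes were below 0. After centring on the library median 9 were above and 3 below, where 52.1% of all were below. Without centring, 0 passed, and 2 of the 12 had an unadjusted p under 0.05, where 19.7% of all tested genes did (limma). Against siControl replicates 1 and 3, 6 rose past the threshold, where 24.1% of all tested genes did (limma), and against replicate 2 alone 5 were positive and 7 negative. NIFK, which binds the proliferation antigen Ki-67, stood at 66.6, 70.8 and 58.5 TPM in siControl and at 79.1, 104 and 105 TPM in siNPM1 (log2 fold change 0.54, limma, adjusted p = 0.216; 0.60 without siControl replicate 2, adjusted p = 0.0308), without overlap. MYBBP1A, a regulator of ribosomal RNA synthesis, stood at 17.6, 32.5 and 17.6 TPM in siControl and at 29.9, 43.4 and 39.3 TPM in siNPM1 (log2 fold change 0.75, limma, adjusted p = 0.237; 1.03 without siControl replicate 2, adjusted p = 0.00953), with overlap through siControl replicate 2.

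**Figure D4:**
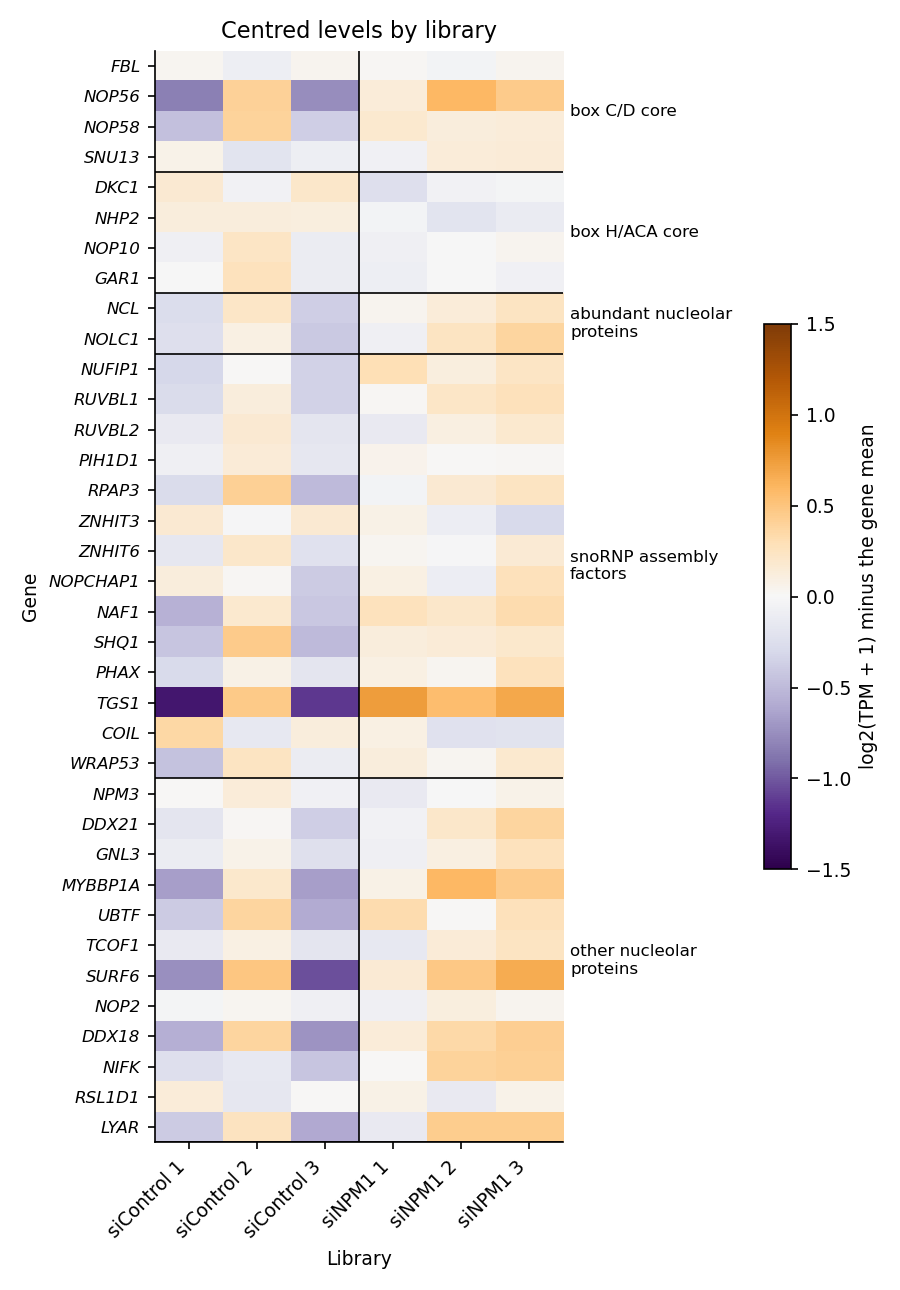
Levels of the 10 genes, 14 snoRNP assembly factors and 12 other nucleolar protein genes in each library, as log2(TPM + 1) minus the mean of the gene over the 6 libraries (orange higher, purple lower). siControl replicate 2 takes the colour of the siNPM1 libraries for NOP56, NOP58, NCL and TGS1 and that of the other controls for NHP2.

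Genes related to the core proteins by fold, or by particle in the case of RRP9, were read beside them. Of 6 genes, 4 were above and 2 below 0 in log2 fold change, also after centring on the library median, and 0 passed (limma). With all 6 libraries, 2 had an unadjusted p under 0.05, where 19.7% of all tested genes did (limma). The groups did not overlap for 3 higher in siNPM1 (RPP38, RRP9 and SECISBP2L), where 16.2% of all tested genes were. They also did not overlap for 1 lower, FBLL1 at 0.64 to 1.53 TPM, where 8.55% of all tested genes were. RPP38, a subunit of RNase P that shares the kink-turn binding fold of SNU13 and NHP2, stood at 13.6, 14.3 and 15.4 TPM in siControl and at 24.2, 21.1 and 19.9 TPM in siNPM1. Its groups did not overlap, and siControl replicate 2 lay between the other controls (log2 fold change 0.56, SE 0.137, limma, adjusted p = 0.207). RRP9, a protein specific to the U3 box C/D particle, stood at 20.8, 22.0 and 19.8 TPM in siControl and at 23.0, 30.2 and 30.9 TPM in siNPM1 (log2 fold change 0.40, limma, adjusted p = 0.243), also without overlap. Without siControl replicate 2, 1 of the 6 rose, where 24.1% of all tested genes did: RPP38 passed (log2 fold change 0.55, limma, adjusted p = 0.0226) and RRP9 did not (limma, adjusted p = 0.0748).

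MYC family genes, whose products are known to drive ribosome synthesis, did not pass with all 6 libraries (0 of 4, limma). Of the 4, 1 had an unadjusted p under 0.05, where 19.7% of all tested genes did (limma). The same gene, MYCL, was the 1 of 4 that rose without siControl replicate 2, where 24.1% of all tested genes did. MYCL stood at 7.14, 11.8 and 6.72 TPM in siControl and at 18.8, 14.2 and 12.4 TPM in siNPM1 (log2 fold change 0.78, limma, adjusted p = 0.224; 1.01 without siControl replicate 2, adjusted p = 0.0132). MYC stood at 101, 49.2 and 95.6 TPM in siControl and at 39.0, 61.0 and 70.8 TPM in siNPM1 (log2 fold change -0.49, limma, adjusted p = 0.410; -0.82 without siControl replicate 2, adjusted p = 0.0557; 0.17 against it alone), high in siControl replicates 1 and 3, where NOP56 and NOP58 were low.

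Several members hold snoRNA genes within their bounds, so host transcript and guide RNA leave the same locus. The annotation places 14 snoRNA genes inside 4 of the 10 genes on the same strand: 5 in NOP56, 4 in NOP58, 3 in NCL and 2 in DKC1. Those in NOP56 share 71 to 102 bases with annotated NOP56 exons, and those in DKC1 share 117 and 129. In NOP58 only RF00575 shares any (62 bases), and those in NCL share 0. How many host reads come from these stretches is unknown. All 14 were in the table and listed at 0 in every library. Of the 941 snoRNA genes in the table, 21 were listed above 0 in any library, so these libraries say little about small RNAs. Processed pseudogenes named after the members, 8 in the table, held at most 2.15 TPM.

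Outside the set, the 5 genes whose centred levels lay nearest to the mean profile of the 10 members were ZNF708, NUS1, SEC22C, XRCC5 and LAS1L, among 7767 genes averaging 10 TPM or more. Their root mean square differences from the profile over the 6 libraries ranged from 0.014 to 0.025 on the log2 scale. The mean profile itself spanned -0.18 to 0.14, and the members lay farther from it than these genes, from 0.079 for NOP10 to 0.454 for NOP56, so the mean profile describes no single member closely.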

How the data were processed

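The authors deposited TPM values per gene for 6 libraries of H9 cells (3 siControl, 3 siNPM1), and the mean TPM of each group, which was not tested. Per the submitters' processing notes, the genome build was GRCh38. The sources used here do not give the aligner, counting tool, annotation or strand setting. TPM keeps no depth, so depth is unknown and replicate spread sets the precision. The 15768 genes averaging 1 TPM or more were compared as log2(TPM + 1) using limma (version 3.58.1, R 4.3.3) and its variance trend, two-sided and adjusted by Benjamini-Hochberg over all of them. Positions come from GENCODE release 29 and upstream sequences from RefSeq (GRCh38.p14).

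The members, gene lists and motifs were chosen with earlier results of these data known. All 10 members are named, and from other lists those past the threshold or the 2 with the smallest p. Alternatives were pseudocounts, filters, scalings, a replicate block, array weights and leaving out each library. The comparison with siControl replicate 2 as the only control was chosen after seeing the data.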

Additional observations from a re-analysis of the deposited data

How the results depend on the processing

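With all 6 libraries 0 of the 10 members and 0 of the 14 assembly factors passed, and pseudocounts, filters and scalings did not change these counts. Array weights gave 6 members and 11 assembly factors, where 60.2% of all tested genes passed; the cause was not tested. Leaving out each library gave 0 to 3 members and 0 to 7 assembly factors, with every count above 0 from leaving out siControl replicate 2. The change in box C/D minus box H/ACA was 0.44 to 0.58 over the planned settings other than leaving out a library, 0.39 to 0.56 leaving out each library, and 0.24 against siControl replicate 2 alone. NHP2 stayed negative throughout, from -0.37 to -0.10. Signs turned for small values. FBL was -0.11 after centring and -0.03 with array weights, and -0.03 to 0.04 leaving out each library. NOP10 was 0.06 rescaled without mitochondrial and ribosomal protein genes, 0.17 after quantile normalization, 0.09 with array weights, and -0.09 to 0.08 leaving out each library. GAR1 was -0.18 to 0.01 leaving out each library. Against siControl replicate 2 alone NOP56 was -0.01, NOP58 -0.25 and NCL -0.08. The median over all genes was 0.10, -0.02 after centring and 0.20 rescaled. Same-numbered libraries did not deviate together (correlations 0.0652, 0.0814 and -0.0383), and with the replicate number as a block 0 members and 0 assembly factors passed, and the box difference was 0.45. Depth is unknown.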
